A study of Mus musculus with 24 samples.

Results

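RNA of 10 marker genes of endothelial cells was followed in mouse blood 24 h after whole-body x-rays, together with the liver gene *Alb* and the platelet gene *Pf4* on the same arrays. The 10 genes are measured by 12 of the 39429 probes of the array. They were chosen by their rise after irradiation in these same samples, so their irradiation differences are a description and carry no p-values. The groups were young (2 months) and old (21 months) male C57BL/6J mice that received 4 Gy of x-rays or were sham-irradiated, here called unirradiated, with 6 mice in each of the 4 groups. All mice were held in a restrainer while awake, and blood was drawn from the heart. The study asked how age changes the response of blood RNA to radiation. Globin RNA was reduced before labelling, and each of the 24 arrays held the RNA of 1 mouse. From arrays of whole blood alone, fewer cells of a type and less RNA per cell cannot be told apart.

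Endothelial cells line the vessels and the heart chambers and are joined through adhesion molecules at their junctions. They respond to growth factors of the VEGF, angiopoietin and TGF-beta families, and they store and release von Willebrand factor. Platelets and the megakaryocytes that shed them carry some of the same proteins, and the sinusoids of liver, spleen and marrow have an endothelium of their own. Among the adhesion genes, *Pecam1* encodes the adhesion molecule CD31 of endothelium, platelets and leukocytes, *Cdh5* encodes VE-cadherin of endothelial junctions, and *Esam* encodes an adhesion molecule of endothelial junctions and platelets. Among the receptor genes, *Kdr* encodes the main VEGF receptor of endothelium, *Tek* the angiopoietin receptor, *Tie1* its partner receptor, and *Eng* a co-receptor for TGF-beta and BMP ligands. *Emcn* encodes a sialomucin of venous and capillary endothelium. Among the secreted products, *Vwf* encodes von Willebrand factor, which binds platelets, and *Egfl7* encodes a matrix protein of growing vessels.

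Signal on an array is given as the log2 intensity minus the median log2 intensity of that array, so that 0 is the array's median spot. A spot counted as well above background when the image software marked it so. The median share of spots well above background was 52.5% (49.7 to 64.4%) in young unirradiated, 54.1% (43.9 to 63.2%) in young irradiated, 53% (50.3 to 53.8%) in old unirradiated and 52.4% (44.3 to 62.3%) in old irradiated mice. The median signal of an array before scaling was between 8.66 and 44.8, and the lowest value was that of an old irradiated mouse. *Pecam1*, *Eng*, *Esam*, *Vwf* and the brighter *Kdr* probe were well above background on all 24 arrays. *Tek* and *Emcn* were well above background on 0 of 24 arrays, and *Cdh5* on 7. These 3 genes did not pass the filter on dim probes, so 7 of the 10 genes were among the 17470 genes tested with limma. *Alb*, well above background on 14 arrays, did not pass it either and is given by its values.

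*Pecam1* was measured by probe A_55_P2087087 (mm9 chr11:106540864-106540923, minus strand). Its signal ranged from 3.0 to 3.73 (median 3.19) in young unirradiated and from 2.86 to 5.06 (median 4.22) in young irradiated mice. In old mice it ranged from 3.05 to 4.09 (median 3.88) without and from 4.74 to 5.86 (median 5.05) with irradiation. The young groups overlapped, and every old irradiated mouse was above every old unirradiated mouse. *Esam*, measured by probe A_55_P2125811 (mm9 chr9:37345795-37345854, plus strand), ranged from 4.64 to 5.71 (median 5.40) in young unirradiated and from 6.04 to 7.74 (median 7.19) in young irradiated mice. In old mice *Esam* ranged from 5.58 to 6.58 (median 5.89) without and from 7.09 to 8.49 (median 7.75) with irradiation. Irradiated and unirradiated mice did not overlap at either age.

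*Cdh5* was measured by probe A_52_P248604 (mm9 chr8:106668159-106668218, plus strand) and stayed close to background. It was well above background in 1 young unirradiated, 3 young irradiated, 0 old unirradiated and 3 old irradiated mice. The 3 young irradiated mice had *Cdh5* values of −0.10, 0.51 and 0.16, and the 3 old irradiated mice had 0.35, 0.05 and 0.07. In these 6 mice *Alb* was 11.20, 12.16, 11.55, 11.54, 11.58 and 12.44, in the same order, and in the other 6 irradiated mice *Alb* was at most 4.85. In young mice *Cdh5* ranged from −2.52 to −0.99 (median −1.94) without and from −3.19 to 0.51 (median −0.87) with irradiation. In old mice *Cdh5* ranged from −2.76 to −0.90 (median −2.35) without and from −2.20 to 0.35 (median −0.66) with irradiation. The groups overlapped at both ages, and no fold difference is given because *Cdh5* did not exceed the background limit on average.

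*Tie1*, measured by probe A_51_P177171 (mm9 chr4:118144132-118144191, minus strand), was well above background in 1 of 6 young unirradiated and 5 of 6 young irradiated mice. In old mice it was well above background in 3 of 6 without and 6 of 6 with irradiation. Its signal ranged from −2.53 to −0.77 (median −2.25) in young unirradiated and from −0.07 to 1.12 (median 0.90) in young irradiated mice. In old mice *Tie1* ranged from −0.86 to 0.78 (median −0.10) without and from 1.12 to 2.77 (median 2.08) with irradiation. Irradiated mice were above unirradiated mice at both ages without overlap. *Eng*, measured by probe A_55_P2040936 (mm9 chr2:32537268-32537327, plus strand), ranged from 0.39 to 1.60 (median 0.93) in young unirradiated and from 1.44 to 2.86 (median 2.40) in young irradiated mice. In old mice *Eng* ranged from −0.39 to 0.49 (median 0.40) without and from 0.71 to 2.50 (median 1.98) with irradiation. The young groups overlapped and the old groups did not.

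The 2 *Kdr* probes lie 1086 bases apart on the minus strand of chr5 and gave different values. Probe A_55_P2094469 (mm9 chr5:76330395-76330454) was bright, with values of 7.65 to 9.09 (median 8.67) in young unirradiated and 7.41 to 8.99 (median 8.36) in young irradiated mice. In old mice this *Kdr* probe ranged from 7.56 to 8.43 (median 7.99) without and from 6.77 to 9.48 (median 8.22) with irradiation. All 4 groups overlapped. Probe A_51_P316553 (mm9 chr5:76329309-76329368) was dim and stood on the array in 10 spots. It ranged from −1.68 to 0.82 (median −0.90) in young unirradiated and from 1.65 to 2.94 (median 2.21) in young irradiated mice. In old mice the dim *Kdr* probe ranged from −0.86 to 0.10 (median −0.30) without and from 0.66 to 3.45 (median 2.91) with irradiation. On this probe irradiated mice were above unirradiated mice at both ages without overlap. The dim probe was well above background in all 12 irradiated mice, in 3 young unirradiated and in 4 old unirradiated mice. Over the 24 arrays the 2 probes had a Pearson correlation of −0.274. Gene-level values used the bright probe, and which of the probes follows *Kdr* RNA was not tested. *Tek* (probe A_55_P2262136, mm9 chr4:94540624-94540683, plus strand) ranged from −4.07 to −1.63 over all mice and *Emcn* (probe A_55_P1988048, mm9 chr3:137086389-137086448, plus strand) from −4.02 to −0.28. Both were at background in all 4 groups, and a difference was not detectable.

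Both *Vwf* probes lie on the plus strand of chr6, 94445 bases apart, and had a Pearson correlation of 0.965 over the 24 arrays. Probe A_51_P103397 (mm9 chr6:125636551-125636610) was among the brighter probes of the 10 genes, with values of 8.41 to 9.35 (median 9.14) in young unirradiated and 9.71 to 11.28 (median 10.77) in young irradiated mice. In old mice this *Vwf* probe ranged from 9.46 to 10.40 (median 10.06) without and from 10.98 to 12.02 (median 11.74) with irradiation. Neither age showed overlap, and young irradiated mice lay in the range of old unirradiated mice or above it. Probe A_55_P2169659 (mm9 chr6:125542106-125542165) was dimmer, from 1.09 to 2.54 (median 1.90) in young unirradiated and from 1.89 to 4.33 (median 3.60) in young irradiated mice. In old mice the dimmer *Vwf* probe ranged from 2.28 to 3.73 (median 2.87) without and from 3.78 to 4.97 (median 4.49) with irradiation. *Egfl7*, measured by probe A_55_P2111355 (mm9 chr2:26448142-26448201, plus strand), ranged from 0.04 to 1.96 (median 0.68) in young unirradiated and from 1.94 to 4.88 (median 3.33) in young irradiated mice. In old mice *Egfl7* ranged from −0.65 to 0.70 (median −0.40) without and from 0.81 to 3.92 (median 2.63) with irradiation. Young groups met at the edge of their ranges, and old groups did not overlap.

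**Figure D1:**
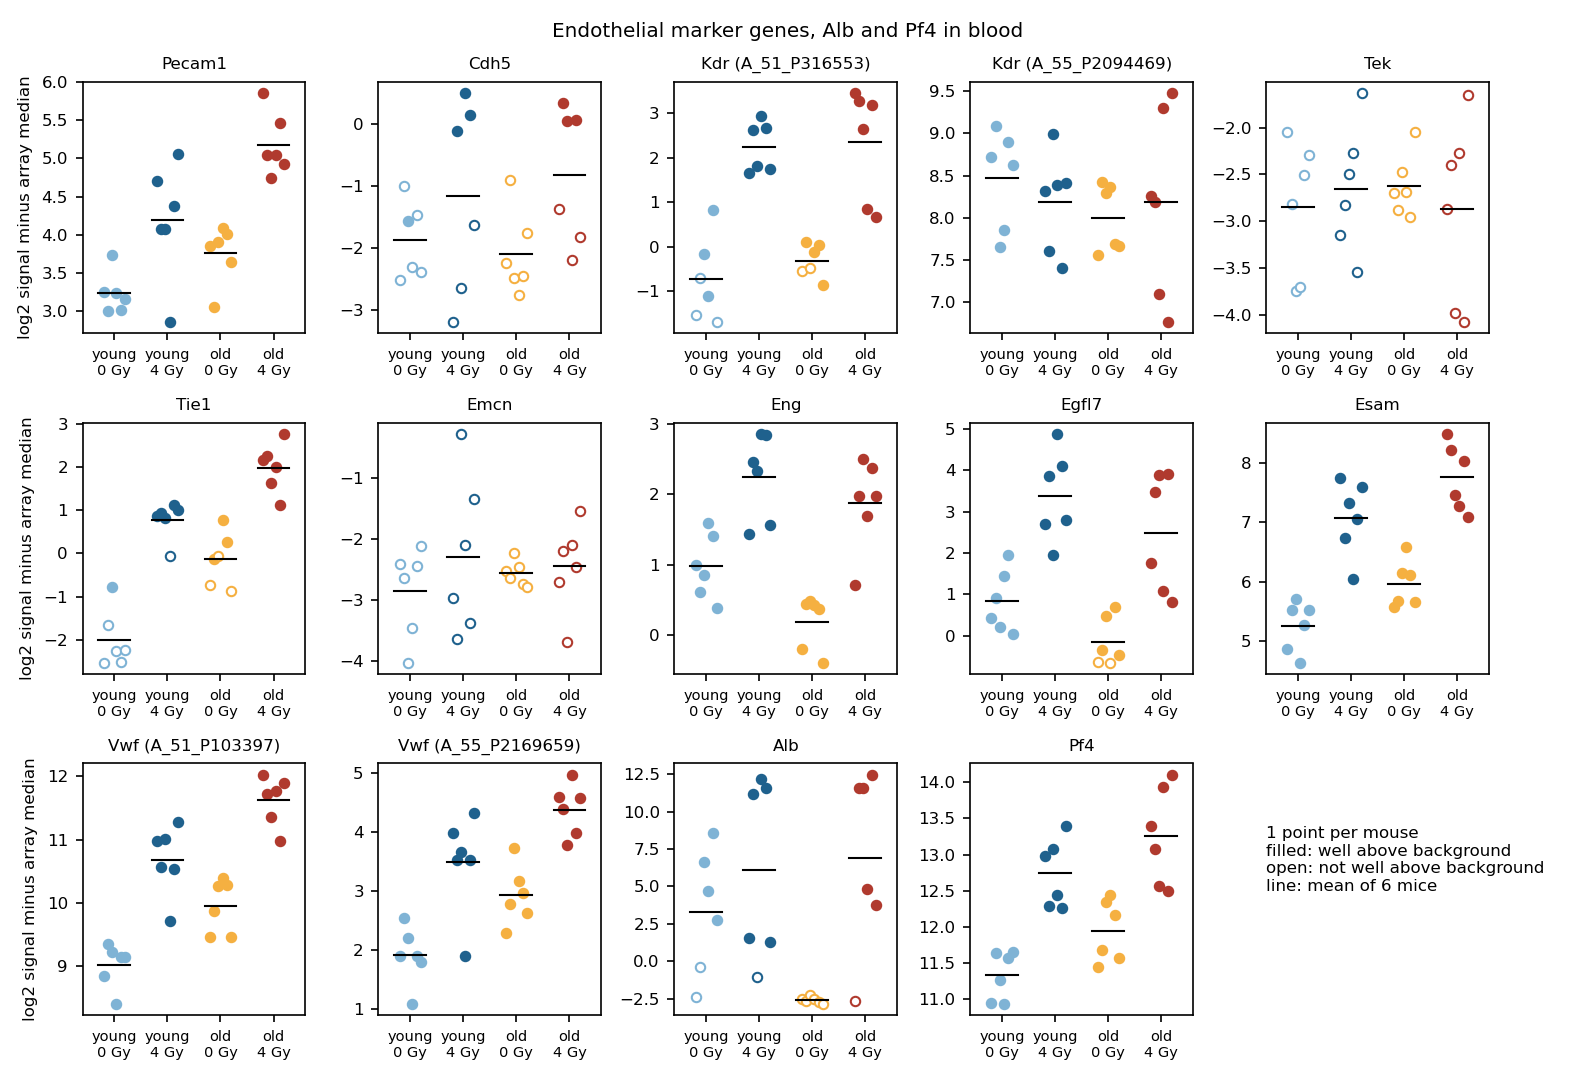
Signal of each probe of the 10 genes, *Alb* and *Pf4* (log2 intensity minus the array median) in each mouse of the 4 groups of 6, with open points where the probe was not well above background and lines at group means. The brighter *Vwf* probe, *Esam*, *Tie1* and the dim *Kdr* probe are higher in irradiated mice at both ages without overlap, whereas *Tek*, *Emcn* and the bright *Kdr* probe overlap in all groups.

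Upstream sequence was at hand in a RefSeq table (GRCm38.p6) for 6 of the 10 genes, *Kdr*, *Tek*, *Tie1*, *Emcn*, *Eng* and *Egfl7*, and for *Pf4* and *Alb*. *Cdh5*, *Esam*, *Pecam1* and *Vwf* are named only. The 250 bases before each gene's start were searched on both strands for ETS sites, the sites of a transcription factor family active in endothelium and megakaryocytes, in the form AGGAAG. This form occurred in 29.5% of the 32851 promoters of the table. The other ETS form searched, CGGAAG, occurred in 13.6%. The GATA site AGATAA occurred in 9.99%. *Eng* had the commoner ETS form 52 and 6 bases before its start, and *Tie1* had the rarer form 232 and the commoner form 219 bases before its start. *Emcn* had the commoner form 174 and 93 bases before its start, and *Egfl7* 216, 89 and 49 bases before its first listed start and 80 before its second. *Pf4* had the commoner form 9 bases before its start. *Kdr*, *Tek* and *Alb* had no ETS site of either form, and the GATA site was in none of these promoters. The promoters of *Eng*, *Tie1*, *Kdr* and *Pf4* are shown because these genes moved in different ways, *Eng* and *Tie1* rising after irradiation, *Kdr* differing between its probes, and *Pf4* standing for platelets. Capitals mark the letters of an ETS site on either strand, and the last base is the base before the start. The coordinates are those of *Eng* at chr2:32646345-32646594 on the plus strand, *Tie1* at chr4:118489850-118490099 on the minus strand, *Kdr* at chr5:75978456-75978705 on the minus strand and *Pf4* at chr5:90772185-90772434 on the plus strand.
Eng: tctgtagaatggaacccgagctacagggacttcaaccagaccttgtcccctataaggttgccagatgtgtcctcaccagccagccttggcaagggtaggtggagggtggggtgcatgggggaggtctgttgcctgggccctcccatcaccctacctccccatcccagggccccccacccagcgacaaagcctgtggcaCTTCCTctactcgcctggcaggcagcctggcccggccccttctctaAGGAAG
Tie1: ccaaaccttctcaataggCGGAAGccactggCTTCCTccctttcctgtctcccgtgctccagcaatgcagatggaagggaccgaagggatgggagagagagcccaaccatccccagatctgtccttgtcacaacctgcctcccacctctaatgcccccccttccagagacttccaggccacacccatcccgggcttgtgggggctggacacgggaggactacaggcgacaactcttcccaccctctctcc
Kdr: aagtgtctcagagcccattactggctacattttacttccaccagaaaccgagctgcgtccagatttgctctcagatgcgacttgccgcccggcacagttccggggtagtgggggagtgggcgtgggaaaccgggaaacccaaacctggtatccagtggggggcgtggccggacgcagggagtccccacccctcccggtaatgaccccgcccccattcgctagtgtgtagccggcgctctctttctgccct
Pf4: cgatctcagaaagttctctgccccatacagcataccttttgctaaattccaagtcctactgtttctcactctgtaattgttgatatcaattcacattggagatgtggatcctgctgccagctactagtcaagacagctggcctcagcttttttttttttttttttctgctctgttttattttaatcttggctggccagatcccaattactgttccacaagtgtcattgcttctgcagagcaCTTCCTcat

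Irradiated minus unirradiated differences of group means are given as log2 difference ± standard error with 6 mice in each group. *Tie1* was close to background in young unirradiated mice and is given there as a lower bound, with each of these mice set to the lowest signal at which a spot of its array passed as well above background unless its own value was higher. By this bound *Tie1* was at least 2.83-fold higher in young irradiated mice. The rise of *Egfl7* was 2.55 ± 0.482 in the young and 2.64 ± 0.574 in the old. The brighter *Vwf* probe rose by 1.66 ± 0.255 (3.17-fold) in young mice and 1.67 ± 0.273 (3.18-fold) in old mice. *Esam* rose by 1.82 ± 0.289 (3.54-fold) and 1.81 ± 0.303 (3.5-fold) in the same order. *Eng* rose by 1.28 ± 0.294 in young and 1.68 ± 0.321 in old mice, and *Pecam1* by 0.96 ± 0.304 and 1.43 ± 0.269. In old mice *Tie1* rose by 2.11 ± 0.346, 4.32-fold. By the same bound the dim *Kdr* probe was at least 5.85-fold higher in young irradiated mice, and it rose by 2.65 ± 0.497 in old mice, whereas the bright *Kdr* probe differed by −0.28 ± 0.312 and 0.18 ± 0.451. The differences of the bright *Kdr* probe were within the spread between mice. With background correction by normexp, *Tie1* rose by 0.58 in young and 0.72 in old mice, the dim *Kdr* probe by 1.18 and 1.14, *Egfl7* by 1.83 and 1.39, *Eng* by 0.82 and 0.74 and *Vwf* by 2.30 and 2.31. The young *Tie1* and dim *Kdr* values with normexp were below their bounds, so the bounds hold only for the background treatment used above. *Esam* rose by 2.15 and 2.25 with normexp, but its irradiated and unirradiated mice overlapped at both ages. With normexp the brighter *Vwf* probe also overlapped in young mice and *Pecam1* in old mice, whereas *Egfl7* did not overlap in young mice.

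Of the 7 tested genes, 3 (*Esam*, *Tie1* and *Vwf*) were higher in every young irradiated than in every young unirradiated mouse, and 9.57% of all tested genes were. Of all genes tested with limma, 14.4% were called higher and 21.4% lower in young irradiated mice, with a call defined by an unadjusted p below 0.005 and an adjusted p below 0.05. In old mice 6 of the 7 genes, all but *Kdr*, were higher without overlap, and 5.92% of all tested genes were. Calls in old irradiated mice were higher for 7.6% and lower for 17.4% of all genes. The median difference of all genes was −0.20 in young and −0.25 in old mice. Of the calls among all genes in young mice, 40.3% were higher, and 94.1% with normexp. In old mice 30.4% of the calls were higher, 49.1% with scaling to the 75th percentile, 54.3% with scaling to the bright probes, those never at background, 52% with the table of the authors and 50% with normexp, where 4 genes were called higher and 4 lower. With the slide as a block 355 genes were called higher and 146 lower in old mice, 70.9% higher. *Vwf*, *Esam*, *Eng*, *Egfl7*, *Pecam1* and *Tie1* kept a positive irradiation difference at both ages under each of these scalings. The bright *Kdr* probe changed sign between alternatives.

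Irradiated and unirradiated mice shared a slide in 1 slide of young and 1 slide of old mice, with 2 mice of each group on it. Within these slides *Vwf* rose by 1.63 in young and 2.00 in old mice, and *Esam* by 1.84 and 2.47. *Tie1* was higher without overlap on both slides, and *Egfl7* rose by 2.29 and 2.51, *Eng* by 1.05 and 1.35, and *Pecam1* by 1.31 and 1.64, in the same order. The dim *Kdr* probe was higher without overlap on both slides and the bright *Kdr* probe differed by −0.79 and 0.54. *Pf4* rose by 1.03 and 1.38 within these slides. *Alb* overlapped on the young slide, and on the old slide it was well above background in 1 of the 2 irradiated and 0 of the 2 unirradiated mice. Young and old mice were scanned on different days, so age and scan day cannot be told apart.

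The next comparison asked whether *Vwf* and the other genes differed with age before irradiation. The median old minus young difference of all genes in unirradiated mice was 0.62, so the age differences are read relative to that value. Scaling to the 75th percentile moved this median to −0.02, quantile normalization to 0.11, scaling to the bright probes to −0.11 and the table of the authors to 0.02. In limma, 48.2% of all genes were called higher and 15.5% lower in old unirradiated mice. Of these calls 75.6% were higher, but 27.9% after scaling to the 75th percentile, 42.5% after quantile normalization, 20.7% after scaling to the bright probes and 17.2% in the table of the authors. Among the 7 genes limma called 3, *Vwf* and *Tie1* higher and *Eng* lower in old mice. *Tie1* (adjusted p 0.00026) was well above background in 1 of 6 young and 3 of 6 old unirradiated mice, and by the lower bound it was at least 1.52-fold higher in old mice, so its call rests on values near background. *Vwf* differed by 0.94 ± 0.214 (adjusted p 0.0014), and all 6 old mice were above all 6 young mice. *Eng* differed by −0.79 ± 0.232 (adjusted p 0.00729), with overlap. The *Vwf* difference was above the median of all genes, and the *Eng* difference was below it.

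*Vwf* was no longer called in unirradiated old against young mice after scaling to the 75th percentile (0.42), quantile normalization (0.42), scaling to the bright probes (0.35), normexp (0.54) and in the table of the authors (0.33). *Tie1* was no longer called with normexp (0.23), where 0 of all 11773 tested genes were called, and in the table of the authors. The normexp value of *Tie1*, 1.18-fold, was below the bound of 1.52-fold. *Eng* stayed negative in all alternatives, from −1.37 to −0.26, and lost its call in 14 of 27. The *Eng* call was lost without young unirradiated replicate 1, 3, 4 or 5, where the difference was −0.78, −0.81, −0.66 and −0.70. It was also lost without old unirradiated replicate 1, 2, 4, 5 or 6, where *Eng* differed by −0.71, −0.84, −0.83, −0.82 and −0.67. *Egfl7* differed by −0.98 ± 0.349 (adjusted p 0.0198) and was not called. It was negative in every alternative and called in 4 of 26, with scaling to the 75th percentile (−1.50), scaling to the bright probes (−1.57), the table of the authors (−1.26) and the slide as a block (−1.0). No slide held both ages, so the slide block makes no age comparison within a slide. *Esam* (0.70 ± 0.223, adjusted p 0.0111) and *Pecam1* (0.53 ± 0.19, adjusted p 0.0209) were not called and changed sign between scalings. *Esam* was called in 4 of 27 alternatives, with the trend fit, the slide as a block, the bright probes alone, and without young unirradiated replicate 3 (0.79), and *Pecam1* in 2, with the slide as a block and without old unirradiated replicate 2 (0.67). The bright *Kdr* probe differed by −0.47 ± 0.266 (adjusted p 0.118) and was called lower in 3 alternatives, with scaling to the 75th percentile, scaling to the bright probes and quantile normalization, and in the authors' table, which holds the dim probe, *Kdr* differed by 0.22.

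In irradiated mice limma called 0 of the 7 genes between old and young, and 1.4% of all genes were called higher and 0.601% lower in old. The 245 genes called higher of all genes fell to 16 without young irradiated replicate 3, rose to 313 without old irradiated replicate 6, and were 3542 without the 2 old irradiated arrays of lowest median signal, an alternative chosen after seeing the data. The calls of all genes were mostly higher in old mice here, but 28 were higher and 86 lower after scaling to the 75th percentile, 54 and 139 after scaling to the bright probes, 7 and 37 in the table of the authors and 4 and 30 with normexp. At an unadjusted p under 0.05, where 3736 of the 17470 genes lay, 3 of the 7 were higher in old mice, *Tie1* by 1.21 ± 0.314 (p 0.00188, adjusted p 0.0651), *Vwf* by 0.94 ± 0.306 (p 0.00844, adjusted p 0.11) and *Pecam1* by 0.99 ± 0.358 (p 0.0154, adjusted p 0.136). These sizes were lower in some alternatives, *Vwf* 0.24 with quantile normalization, 0.55 with normexp and 0.21 in the table of the authors, *Tie1* 0.38 with normexp, and *Pecam1* 0.64 with quantile normalization, 0.52 with normexp and 0.66 in the table of the authors. The random variance test and limma with a variance trend also called 0. The median gene differed by 0.20. With the slide as a block 2 of the genes were called, *Tie1* (1.21) and *Vwf* (0.93, close to the limit), beside 1027 of all genes called higher and 314 lower, again without a slide that held both ages. A fit of all 24 arrays called 3 of the genes, *Pecam1*, *Tie1* and *Vwf*, and 2045 of all genes higher and 478 lower. Whether *Vwf* and the other genes responded differently by age was tested as an interaction. limma called 0 of the 7 genes and 0% of all genes, where 4112 of 17470 genes had an unadjusted p under 0.05 and the lowest adjusted p was 0.0601. Among the 7 genes 0 had an unadjusted p under 0.05, the lowest was that of *Tie1* (p 0.169, adjusted p 0.364), whose young unirradiated values were near background, and the random variance test and the trend fit called 0 as well. Without old irradiated replicate 3, limma called 257 of all genes with a larger and 778 with a smaller response in old mice, and 0 of the 7.

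*Pf4* (probe A_51_P441426, mm9 chr5:91202275-91202334) was well above background on all arrays. It ranged from 10.94 to 11.65 (median 11.42) in young unirradiated and from 12.26 to 13.39 (median 12.71) in young irradiated mice. In old mice *Pf4* ranged from 11.44 to 12.44 (median 11.92) without and from 12.49 to 14.10 (median 13.24) with irradiation. limma called *Pf4* higher after irradiation in young mice by 1.40 ± 0.231 (adjusted p 0.000354) and in old mice by 1.32 ± 0.336 (adjusted p 0.00947), with every irradiated mouse above every unirradiated mouse at both ages. *Alb* (probe A_51_P160713, mm9 chr5:90901598-90901657) differed widely between mice of a group. *Alb* was −2.38, −0.35, 6.62, 4.68, 8.59 and 2.79 in the 6 young unirradiated mice and 1.55, 11.20, −1.07, 12.16, 11.55 and 1.32 in the young irradiated mice. In the old irradiated mice *Alb* was −2.65, 11.54, 11.58, 4.85, 12.44 and 3.76. In old unirradiated mice *Alb* was between −2.81 and −2.25 and well above background in 0 of 6. By the same bound as for *Tie1*, *Alb* was at least 212-fold higher in old irradiated and at least 17.5-fold higher in young unirradiated mice. With normexp *Alb* was 47.5-fold higher in old irradiated mice, below the bound. Old minus young unirradiated mice differed in *Alb* by −2.25 with normexp, also short of the bound. Both bounds therefore hold only for the background treatment used above. Both bounds moved with single mice. The first was 798, 112, 111, 98.5 and 328-fold without old irradiated replicate 1, 2, 3, 5 and 6, and the second was 38.6, 29.1, 11.1 and 8.44-fold without young unirradiated replicate 1, 2, 3 and 5.

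**Figure D2:**
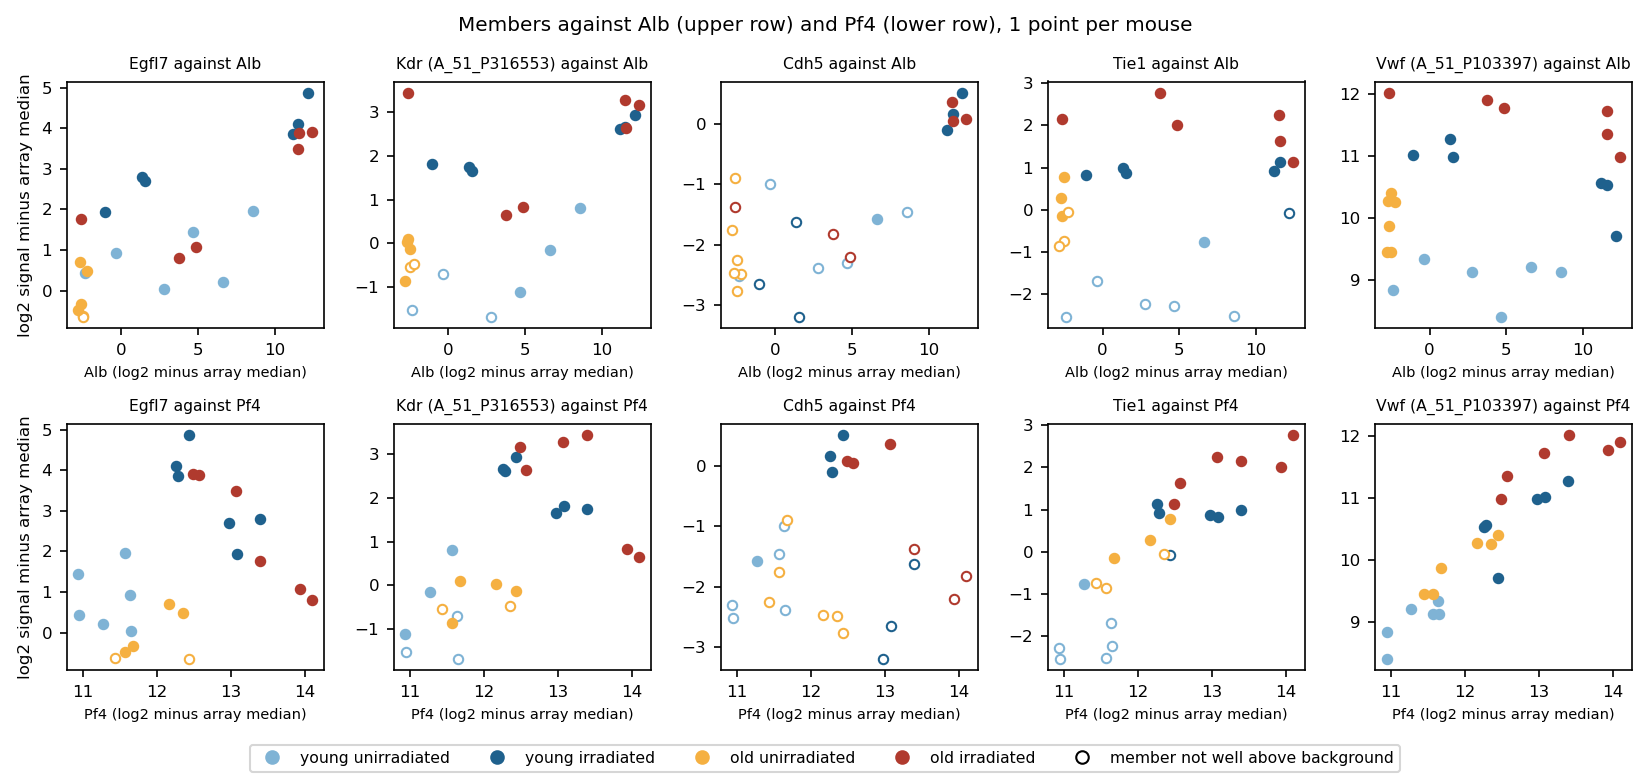
Signal of *Egfl7*, the dim *Kdr* probe, *Cdh5*, *Tie1* and the brighter *Vwf* probe (log2 intensity minus the array median) against *Alb* (upper panels) and *Pf4* (lower panels) on the same array, 1 point per mouse, a colour per group, and open points where the gene was not well above background. In irradiated mice *Egfl7* and *Cdh5* are highest on the arrays where *Alb* is highest. *Vwf* is high in irradiated mice with high *Pf4*, with r 0.75 in young and 0.80 in old mice (exact permutation, adjusted p 0.233 for both).

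In young irradiated mice *Egfl7* was 2.71, 3.87, 1.94, 4.88, 4.11 and 2.79, in the order in which *Alb* is given above, and *Eng* was 1.44, 2.46, 2.34, 2.86, 2.85 and 1.57. The 3 highest *Egfl7* values and the 3 highest *Eng* values were in the mice with the 3 highest *Alb* values. In old irradiated mice *Egfl7* was 1.77, 3.48, 3.88, 1.07, 3.92 and 0.81, and *Eng* was 0.71, 1.98, 2.50, 1.70, 2.38 and 1.98. The 3 highest *Egfl7* values of old irradiated mice were also in the mice with the 3 highest *Alb* values. The brighter *Vwf* probe went the other way, with its 3 lowest values in these mice in both irradiated groups. *Esam* had its 3 lowest values in these mice in young irradiated mice, but in old irradiated mice its lowest values were in replicates 4 and 6, which had lower *Alb*. The dim *Kdr* probe was 1.65, 2.61, 1.81, 2.94, 2.66 and 1.74 in young irradiated mice, highest in the same 3 mice. In old irradiated mice it was 3.45, 3.28, 2.65, 0.84, 3.17 and 0.66, and its highest value was in the mouse with the lowest *Alb*. *Alb* fell into separate clusters in the irradiated groups, with a widest gap of 9.65 in young and 6.70 in old mice, so no correlation with *Alb* is given there. In old unirradiated mice *Alb* was at background throughout, and no correlation is given there either.

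Correlations were computed within groups of 6 mice, of 9 probes with *Pf4* in the 4 groups and with *Alb* in young unirradiated mice, 45 relations in all, with two-sided exact permutation p and Benjamini-Hochberg adjustment over the 45. *Esam* rose with *Pf4* in old unirradiated mice (Pearson r 0.95, exact permutation p 0.00139, adjusted p 0.0312; Spearman rho 1, exact p 0.00278, adjusted p 0.0417). Without the 2 mice farthest from the median of *Pf4*, r was 0.98. The r of *Esam* with *Pf4* was 0.76 in young unirradiated mice, and −0.60 there without the 2 farthest. It was 0.71 in young irradiated and −0.46 in old irradiated mice. *Egfl7* fell with *Pf4* in old irradiated mice (r −0.97, exact permutation p 0.00139, adjusted p 0.0312, rho −1, exact p 0.00278, adjusted p 0.0417), and r was −0.95 without the 2 farthest mice. The bright *Kdr* probe rose with *Pf4* in old irradiated mice (r 0.99, exact permutation p 0.00278, adjusted p 0.0417, rho 1, exact p 0.00278, adjusted p 0.0417), and r was 0.98 without the 2 farthest. With scaling to the 75th percentile 2 of these 3 relations had an adjusted p of r under 0.05, and that of *Egfl7* was 0.0625. By rho, the brighter *Vwf* probe in old irradiated mice passed under that scaling (rho 1, exact p 0.00278, adjusted p 0.0417). Its adjusted permutation p by r was 0.0714. The brighter *Vwf* probe rose with *Pf4* in old unirradiated mice with r 0.96 (exact permutation p 0.0125, adjusted p 0.113, rho 0.94, exact p 0.0167, adjusted p 0.15), and r was 0.92 without the 2 farthest. In young unirradiated mice its r was 0.81, and 0.04 without the 2 farthest. It was 0.75 in young irradiated and 0.80 in old irradiated mice (exact permutation, adjusted p 0.233 for both). There 22.1% and 28.9% of all genes had an r as high. Among all genes in old unirradiated mice, 1.75% had an r with *Pf4* as high as that of *Esam* and 1.1% as high as that of *Vwf*. In old irradiated mice 1.14% of all genes had an r as high as that of the bright *Kdr* probe and 98.4% had one as high as or above that of *Egfl7*, and the median r of all genes was −0.40. In these mice *Pf4* was highest on the arrays of lowest median signal, 8.84 and 8.66, and lowest on those of highest median signal, both 33.1. With *Alb* in young unirradiated mice the dim *Kdr* probe had the highest r (0.74, exact permutation p 0.0958, adjusted p 0.27, rho 0.71, exact p 0.136, adjusted p 0.358), and without the 2 mice farthest in *Alb* it was 0.32, so this r rests on those mice. Slides held too few mice of a group for correlations within a slide.

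Irradiation differences were also computed with *Alb* or *Pf4* of the same array as a covariate, as a description. In young mice the brighter *Vwf* probe differed by 1.80 ± 0.231 with *Alb* and by 0.45 ± 0.393 with *Pf4* in the fit. In old mice *Vwf* differed by 2.16 ± 0.406 with *Alb* and 0.88 ± 0.301 with *Pf4*. *Esam* in young mice differed by 1.96 ± 0.273 with *Alb* and 0.49 ± 0.461 with *Pf4*, and in old mice by 1.88 ± 0.491 and 1.84 ± 0.468. *Egfl7* in old mice differed by 0.83 ± 0.671 with *Alb* and 4.33 ± 0.726 with *Pf4*, against 2.64 ± 0.574 without a covariate. *Eng* in old mice differed by 0.75 ± 0.398 with *Alb* and 1.85 ± 0.497 with *Pf4*. In young mice *Egfl7* differed by 2.15 ± 0.323 and *Eng* by 1.09 ± 0.247 with *Alb*, and by 4.28 ± 0.902 and 2.64 ± 0.47 with *Pf4*. *Tie1* in old mice differed by 2.60 ± 0.533 with *Alb* and 1.0 ± 0.374 with *Pf4*. *Pf4* did not overlap between irradiated and unirradiated mice, so its fits reach beyond the values measured in each group. *Alb* was at background in all old unirradiated mice and in separate clusters in the irradiated groups, so its fits in old mice rest on the irradiated clusters alone. What part of the rise of *Vwf*, *Egfl7* or the other genes came from platelets, liver or endothelium was not tested.

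**Figure D3:**
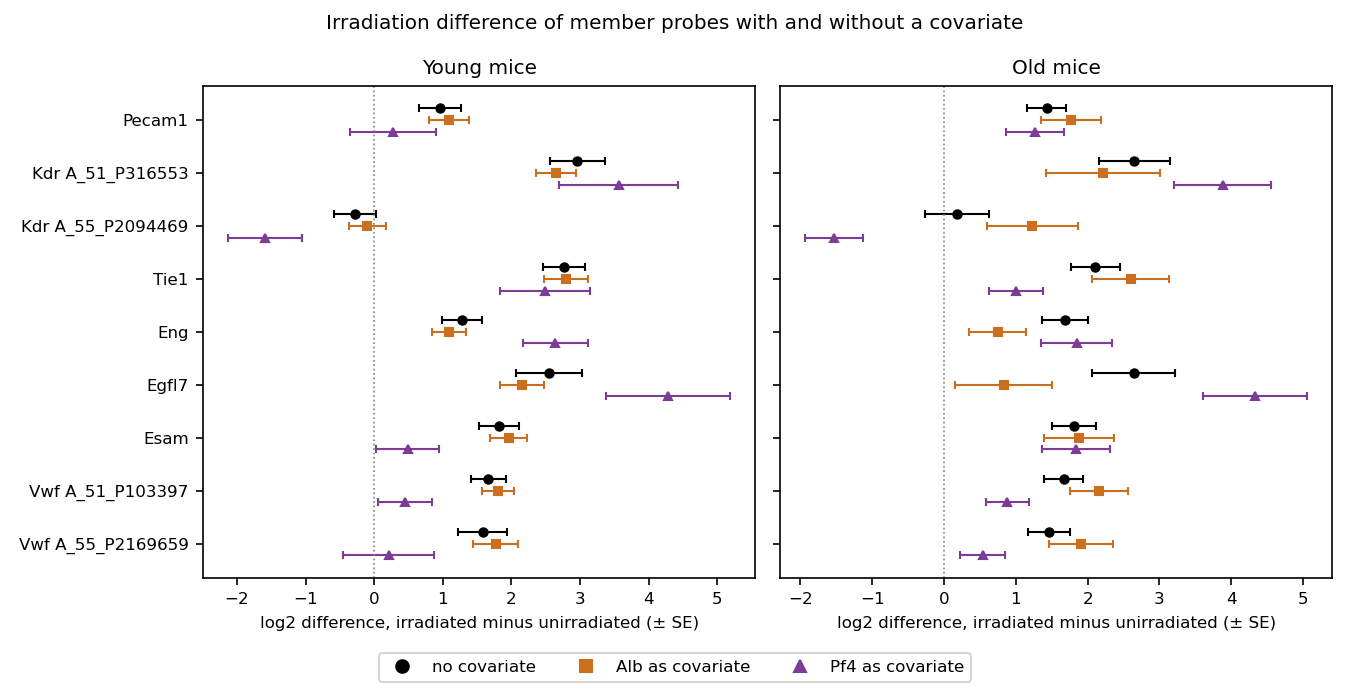
Irradiated minus unirradiated log2 difference of each probe in young and old mice, without a covariate and with *Alb* or *Pf4* of the same array in the fit, with standard errors and 6 mice in each group. *Vwf* is smaller with *Pf4* at both ages, and *Egfl7* and *Eng* of old mice are smaller with *Alb*.

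Genes most alike to each of the 10 over all 24 arrays are given as a description. The brighter *Vwf* probe was closest to *Itgb3* (r 0.994) and the dimmer one to *Csrp1* (0.984). *Esam* was closest to *Tal1* (0.993), *Egfl7* to *Robo4* (0.95), *Eng* to *Etv1* (0.95) and *Tie1* to *Glb1l* (0.971). *Pecam1* was closest to the histone gene *Hist1h2bm* (0.971), the bright *Kdr* probe to *Gm10216* (0.994) and the dim *Kdr* probe to *Fmo5* (0.953). *Cdh5* was closest to *Onecut1* (0.896), *Apof* (0.889), ENSMUST00000177157 (0.884), *Cyp2a12* (0.883) and *Ndrg2* (0.882). By Spearman rho these were 0.773, 0.672, 0.735, 0.765 and 0.711 in the same order. *Cdh5* was well above background on 7 of 24 arrays, so these correlations rest largely on signal at background and on few brighter arrays. *Tek* was closest to the unnamed probe A_55_P2171683 (0.827) and *Emcn* to *Map3k10* (0.78). *Tek* and *Emcn* were well above background on 0 of 24 arrays, so their correlations describe signal at background.

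A list of 28 other endothelial genes was read beside the 10. Of these, 16 were tested and limma called 10 higher and 2 lower in young irradiated mice, and 7 higher in old irradiated mice, beside 14.4% higher and 21.4% lower of all genes in young and 7.6% and 17.4% in old mice. With the slide as a block 3 were called higher in the young, where 817 of all 17470 genes were, and 3 in the old, where 355 were. With normexp 4 were called higher in the young, where 786 of all 11773 genes were, and 0 in the old, where 4 were. The median difference of the list was 1.65 in young and 1.48 in old mice. The mean of the list on an array, over its 22 genes that were well above background on at least 3 arrays, lay between 0.56 and 1.14 in young unirradiated and between 1.44 and 2.10 in young irradiated mice, and between 0.51 and 0.84 in old unirradiated and 1.45 and 2.27 in old irradiated mice. *Icam2* had the highest mean signal of the list and rose by 1.69 ± 0.384 (adjusted p 0.003) in young mice, whereas in old mice it differed by −0.98 ± 0.79 (adjusted p 0.349). *Plvap* rose by 1.88 ± 0.206 (adjusted p 2.36e-05) in young and 2.22 ± 0.284 (adjusted p 0.000318) in old mice, in 6 of 6 mice above all unirradiated mice. *Aqp1* rose by 1.93 ± 0.251 (adjusted p 7.49e-05) and 1.98 ± 0.261 (adjusted p 0.000379), also without overlap. *Tm4sf1* rose by 1.69 and 1.60 and was higher in old than in young unirradiated mice by 3.51 ± 0.185 (adjusted p 1.6e-07), without overlap. *Robo4* rose by 1.92 ± 0.523 (adjusted p 0.00887) in young mice with overlap and was at least 2.14-fold higher in old irradiated mice. *Cldn5* rose by 1.41 ± 0.336 (adjusted p 0.00402) in young mice and was at least 2.47-fold higher in old irradiated mice, and *Ramp2* rose by 1.87 and was at least 2.3-fold higher. *Robo4*, *Cldn5* and *Ramp2* were each well above background in 3 of 6 young unirradiated mice, so their young differences include values near background. *Cd34* rose by 2.43 and 1.76, *Tspan7* was at least 3.88-fold higher in young irradiated mice, and *Mcam* fell in young mice (adjusted p 0.000861). *Gpihbp1* fell by 0.94 in young mice and differed by 1.12 in old mice (adjusted p 0.0854). *Erg* was well above background on 0 of 24 arrays, whereas *Icam2* and *Aqp1*, the 2 brightest genes of the list, had mean signals of 7.91 and 7.48. Whether the RNA of this list came from endothelium or from blood cells was not tested.

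Of 10 genes of sinusoidal endothelium, 9 were tested, and limma called 7 higher in young and 5 higher in old irradiated mice. Of all genes, 14.4% and 7.6% were called higher and 21.4% and 17.4% lower. With the slide as a block 4 and 1 sinusoidal genes were called higher, where 817 and 355 of all 17470 genes were. With normexp 4 and 1 were, where 786 and 4 of all 11773 genes were. The median difference of the sinusoidal genes was 2.15 and 1.93, and their list mean was between −0.15 and 2.69 over all mice. *Lyve1* rose by 2.97 ± 0.327 in young and 2.16 ± 0.356 in old mice, and *Stab1* by 2.87 and 2.33. Both were well above background in 3 of 6 young unirradiated mice, so their young differences include values near background. *Clec4g*, the gene of the list with the highest signal, rose by 1.27 and 2.51. *Stab2* was at least 2.13-fold higher in young irradiated and at least 3.73-fold higher in old irradiated mice, and *Oit3* rose by 1.72 and 1.16. *Bmp2* rose by 2.15 ± 0.132 (adjusted p 4.77e-07) in young mice and was not called in old mice (0.82 ± 0.911, adjusted p 0.502), and *Wnt2* (adjusted p 0.0125) was at least 2.08-fold higher in young irradiated mice. Of 25 receptors, ligands and binding partners of the 10 genes, 16 were tested, and limma called 9 higher and 1 lower in young and 6 higher in old irradiated mice, with medians of 1.10 and 1.06 and list means between 2.22 and 4.31. Partners called higher numbered 4 in the young and 2 in the old with the slide as a block, and 6 and 0 with normexp. The shares and numbers of all genes given for the sinusoidal list apply to the partners too. The *Vwf* partners on platelets were among them, with *Gp1ba* rising by 2.17 ± 0.282 and 1.91 ± 0.253, *Gp9* by 1.65 and 1.95, *Gp1bb* by 2.00 and 2.10, *Itga2b* by 2.03 and 1.88 and *Itgb3*, of the highest signal, by 1.86 and 2.06. *Angpt1*, a ligand of the receptor encoded by *Tek*, rose by 1.96 ± 0.31 (adjusted p 0.00027) in young mice and by 1.41 ± 0.432 (adjusted p 0.0226, not called) in old mice. *Tgfbr2* fell by 0.96 in young mice. In old mice its mean was 7.39 without and 6.12 with irradiation, without overlap, but it was not called. *Flt4* and the VEGF-D gene were well above background on 0 arrays. Which cells the RNA of the sinusoidal and partner genes came from was not tested.

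**Figure D4:**
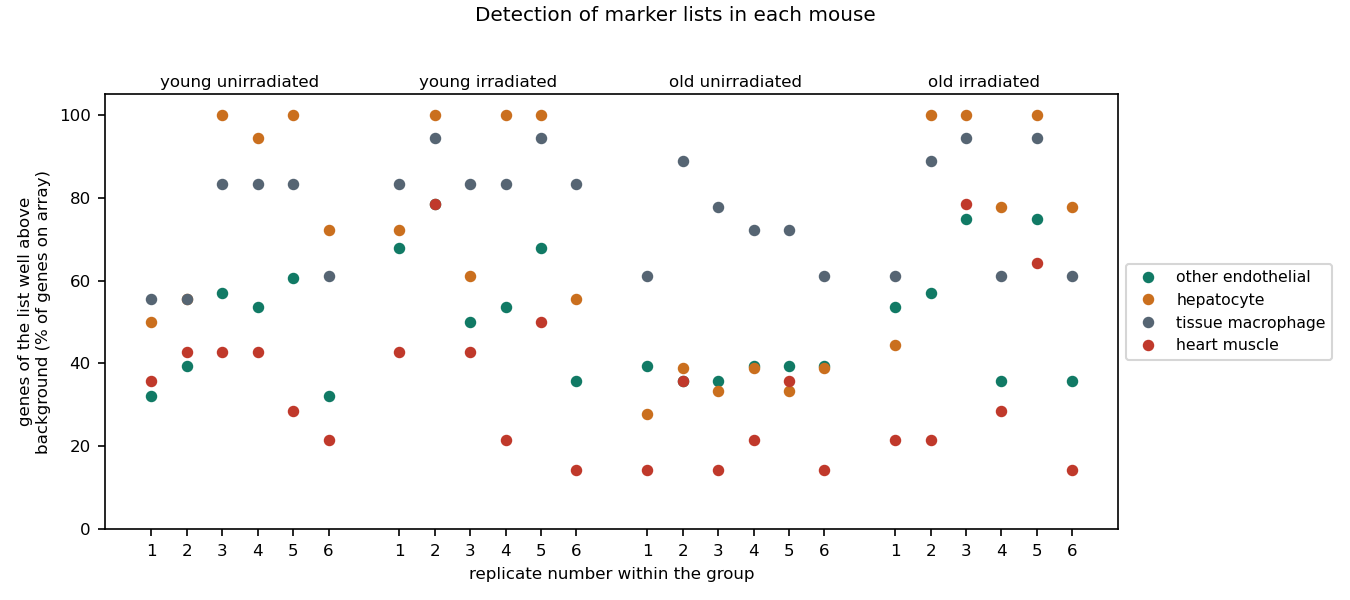
Percentage of the genes of 4 marker lists (other endothelial, hepatocyte, tissue macrophage and heart muscle) that were well above background on the array of each mouse, by group and replicate number. Old unirradiated mice have 5 to 7 of the 18 hepatocyte genes, and all 18 are found in 2 young unirradiated, 3 young irradiated and 3 old irradiated mice.

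Markers of other cell types were read on the same arrays. All 20 platelet and megakaryocyte genes were called higher in young irradiated mice, 16 of them without overlap, and 19 in old irradiated mice, all 19 without overlap. The platelet genes called higher were 14 and 10 with the slide as a block, where 817 and 355 of all 17470 genes were. With normexp they were 18 and 1, where 786 and 4 of all 11773 genes were. Without a block or normexp, 14.4% of all genes in young and 7.6% in old mice were called higher, and 9.57% and 5.92% were higher without overlap. The median difference of the platelet genes was 1.97 in young and 1.85 in old mice, beside −0.20 and −0.25 for all genes. *Pf4* had the highest signal of them, and *Ppbp* rose by 1.41 and 1.54 and *Treml1* by 1.78 and 1.74. In unirradiated mice 17 of the 20 were called higher in old than in young mice, with a median of 1.06 beside 0.62 for all genes, of which 48.2% were called higher. The 17 became 3 with scaling to the 75th percentile, 2 with quantile normalization, 2 with scaling to the bright probes and 1 in the table of the authors. In the same order 1562 of 14818, 2411 of 14937, 1101 of 14611 and 763 of 17166 of all genes were called higher. With normexp the 17 became 0, but there 0 of all 11773 tested genes were called. Of 18 hepatocyte genes, 11 were tested, and limma called 1 higher in young and 10 higher in old irradiated mice, with medians of 2.96 and 6.36. Neither the slide block nor normexp called any of them at either age, and the young count was between 0 and 2 with 1 mouse left out. In unirradiated mice 8 of the 11 were called lower in old than in young mice, beside 15.5% of all genes. The median difference of the 11 was −2.58, beside 0.62 for all genes. With normexp 0 of the hepatocyte genes were called lower, but there 0 of all 11773 tested genes were called. In the fit of all 24 arrays 1 hepatocyte gene was called lower, where 1397 of all 17470 genes were. Their list mean lay between −0.31 and 5.89 in young unirradiated, 0.34 and 9.82 in young irradiated, −1.37 and −0.87 in old unirradiated and −0.35 and 8.93 in old irradiated mice. *Apoa2* had the highest mean signal of the hepatocyte genes and rose by 3.78 ± 0.898 (adjusted p 0.00675) in old mice, and *Serpina1a*, from 0.09 to 12.91 in old irradiated mice, was there at least 480-fold higher and differed by 3.01 ± 2.56 (adjusted p 0.36) in young mice. This bound was 1480, 262, 263 and 251-fold without old irradiated replicate 1, 2, 3 and 5. *Cyp2e1* rose by 5.29 ± 1.01 (adjusted p 0.00227) and *Fgb* by 6.16 ± 1.36 (adjusted p 0.00473) in old mice with overlap, and both were not called in young mice (adjusted p 0.151 and 0.158). In young irradiated mice 13, 18, 11, 18, 18 and 10 of the 18 hepatocyte genes were well above background, in old irradiated mice 8, 18, 18, 14, 18 and 14, in young unirradiated mice 9, 10, 18, 17, 18 and 13, and in old unirradiated mice 5 to 7. The 6 irradiated mice in which *Cdh5* was well above background had all 18. Young unirradiated replicates 3 and 5 also had all 18. Their *Cdh5* values were −1.57 and −1.46, well above background in replicate 3 only. The part of platelet and liver RNA in the values of *Vwf*, *Egfl7* and the other genes was not tested.

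**Figure D5:**
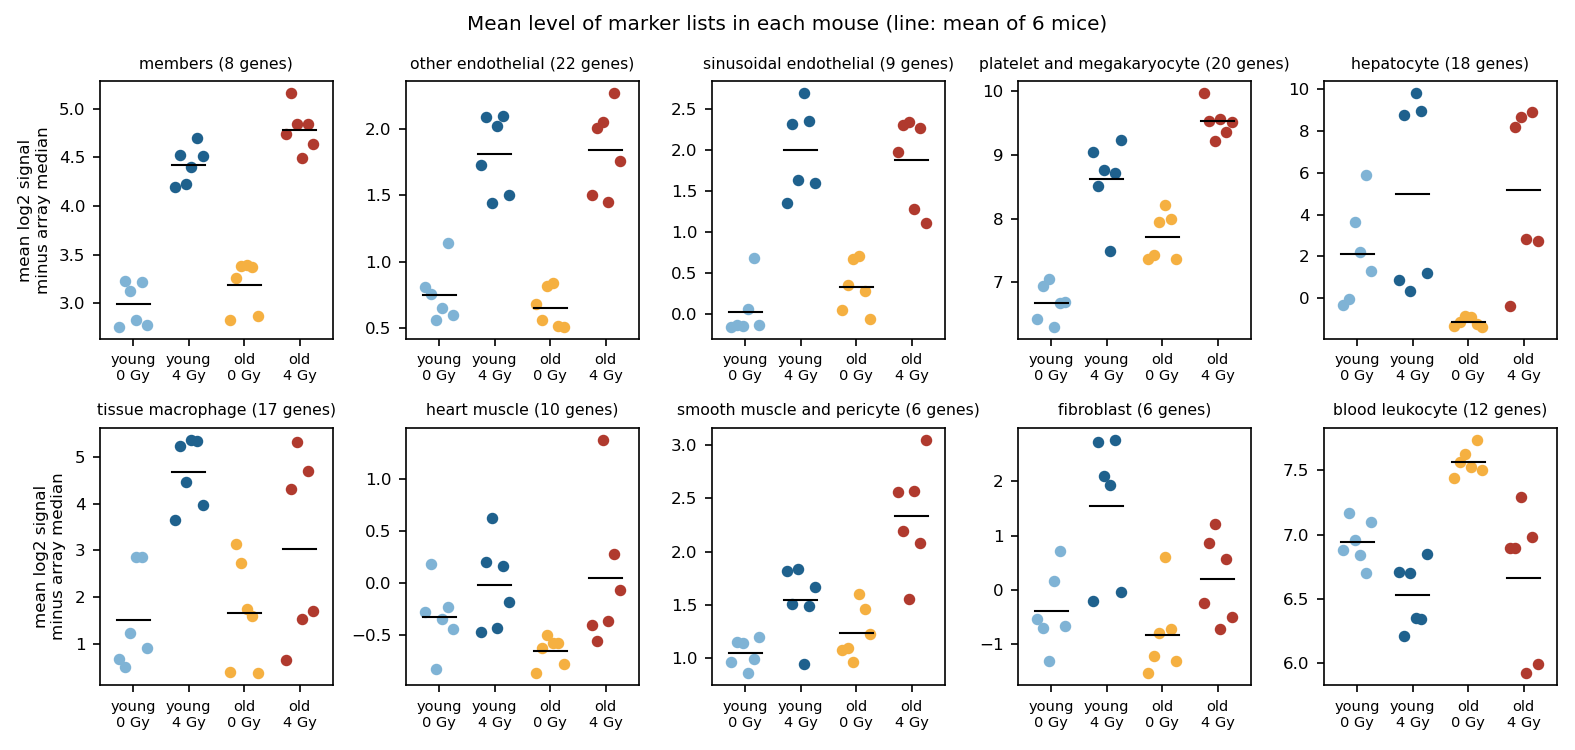
Mean signal of 8 of the 10 genes and of 9 marker lists (log2 intensity minus the array median, genes well above background on at least 3 arrays) on the array of each mouse, with lines at the means of 6 mice. Platelet genes are higher in irradiated mice at both ages without overlap, and hepatocyte genes spread widely except in old unirradiated mice.

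Of 18 tissue macrophage genes 14 were tested, with 12 called higher in young and 1 higher and 1 lower in old irradiated mice, and medians of 2.67 and 1.67. Their list mean was between 0.37 and 5.37 over all mice. A fit with the slide as a block called 3 higher in the young and 0 in the old, where 817 and 355 of all 17470 genes were. With normexp 11 and 0 were called higher, where 786 and 4 of all 11773 genes were. *Adgre1*, of the highest mean signal, rose by 2.75 ± 0.389 (adjusted p 0.000134) in young mice and differed by 0.03 ± 0.796 (adjusted p 0.979) in old mice. *Cd5l* rose by 5.43 ± 0.986 (adjusted p 7e-04) in young mice and differed by 2.31 ± 1.51 (adjusted p 0.252) in old mice. In the same order *C1qc* rose by 4.91 ± 0.996 (adjusted p 0.00148) and differed by 1.94 ± 1.24 (adjusted p 0.243). *C1qb* was called higher at both ages, by 2.25 ± 0.325 (adjusted p 0.00015) in young and, with overlap, by 2.64 ± 0.652 (adjusted p 0.00818) in old mice. *Cd163* was well above background on 0 arrays. The counts of the macrophage list and of the lists that follow stand beside the same shares of all genes, 14.4% higher and 21.4% lower in young and 7.6% and 17.4% in old irradiated mice. Of 14 heart muscle genes 7 were tested, with 1 called higher in young irradiated mice, medians of 0.38 and 1.06 and list means between −0.87 and 1.38. *Myl3* had the highest signal, and it (adjusted p 0.522 and 0.0312), *Myh6* (0.618 and 0.0685), *Myl2* (0.0148 and 0.248) and *Nppb* (0.0303 and 0.535) were not called at either age by limma, and *Myl7* and *Pln* were well above background on 0 arrays.

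Of 11 smooth muscle and pericyte genes 6 were tested, with 3 called higher and 1 lower in young and 1 higher in old irradiated mice, medians of 0.46 and 0.81 and list means between 0.86 and 3.05. *Tagln*, of the highest signal, fell by 1.38 ± 0.279 (adjusted p 0.00146) in young mice, *Acta2* rose by 0.64 ± 0.182 (adjusted p 0.0116) in young and was not called in old mice, *Higd1b* was not called at either age, *Cnn1* was at least 4.97-fold higher in young irradiated mice and rose by 2.87 in old mice, and *Myh11*, *Des*, *Rgs5* and *Notch3* were well above background on 0 arrays. Of 8 fibroblast genes 5 were tested, with 1 called higher at each age, medians of 2.41 and 1.05 and list means between −1.53 and 2.76. *Col1a2*, of the highest signal, rose by 1.56 ± 0.298 (adjusted p 0.00234) in old mice, *Col3a1*, *Dcn* and *Fbln1* were not called at either age, and *Pdgfra* and *Postn* were well above background on 0 arrays. Of 8 lung epithelium genes 3 were tested, with 1 called lower in old irradiated mice, medians of −0.23 and 0.66 and list means between 0.48 and 3.20. *Lamp3* had the highest signal of them and was the gene called, *Sftpd* and *Scgb1a1* were not called at either age, and *Foxj1* was well above background on 0 arrays. Of 9 stem and progenitor genes 7 were tested, with 5 called higher in young and 4 in old irradiated mice, medians of 1.59 and 1.60 and list means between 1.51 and 4.44. *Gata1*, of the highest signal, rose by 1.64 and 1.83, *Slamf1* by 2.00 and 2.20 and *Cd93* by 1.52 and 1.60, and *Gata2* by 1.59 in young mice (in old mice 1.05, adjusted p 0.0426, not called). *Mycn* was well above background on 0 arrays, the brightest *Mecom* probe on 3, *Hlf* on 11, *Kit* on 18 and *Meis1* on 23. Whether the rises in this list came from progenitors or from other blood cells was not tested. Of 12 blood leukocyte genes all were tested, with 4 called higher and 5 lower in young and 3 lower in old irradiated mice, medians of −0.39 and −0.66 and list means between 5.92 and 7.74. *S100a9*, of the highest signal, rose by 1.64 ± 0.349 (adjusted p 0.00195) in young mice and differed by 0.45 ± 0.403 (adjusted p 0.396) in old mice. *S100a8* rose by 1.67 and *Lyz2* by 1.46 in young mice and were not called in old mice (adjusted p 0.314 and 0.902), and *Csf1r* was not called at either age. Under the slide block 0 leukocyte genes were called higher and 4 lower in the young, and 1 lower in the old. Of all 17470 genes that fit called 817 higher and 994 lower in the young, and 355 higher and 146 lower in the old. Counts of 1 in the fibroblast and heart muscle lists of young mice ran from 0 to 4 and from 0 to 2 with 1 mouse left out. The part of these cell types in the values of *Pecam1*, *Cdh5* and the other genes was not tested.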

How the data were processed

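The deposited intensity values, 1 file for each array, had their background subtracted by the authors with Agilent Feature Extraction 12.0.2 and were not scaled between arrays. The authors' deposited log2 table was used only as an alternative, and although the study's methods name median normalization in BRB-ArrayTools, the medians of its arrays differ, so its scaling is uncertain. For each array the log2 of the processed signal was taken, the median of the noncontrol spots was subtracted, and repeat spots were averaged. Probes marked non-uniform or not above background in at least 25% of arrays were dropped, leaving 24130 of 39429 probes and 18737 genes, each represented by its brightest probe. Genes differing 1.5-fold from their median in at least 20% of arrays (5) were tested, 17470 in all. limma 3.58.1 in R 4.3.3 was fitted to the groups of each comparison, with calls made where the unadjusted p was below 0.005 and the p adjusted after Benjamini and Hochberg below 0.05. Correlations used Python 3.11.15, numpy 2.4.6 and scipy 1.17.1, and the R package data.table (version 1.17.8) and matplotlib 3.10.9 served for reading and plots. The members and the 12 marker lists were chosen with earlier results of these data known. Genes named from a list are the 4 of highest mean signal and, for the endothelial, sinusoidal and partner lists, the 5 largest called changes in each direction; the few others named were chosen after their values were seen. Promoter sequences are from RefSeq (GRCm38.p6). A gene of the stem and progenitor list is not reported here, and the list was computed without it.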

Additional observations from a re-analysis of the deposited data

Results flagged for a closer look

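In 3 of the 56 groups of 6 values tested, 1 mouse stood apart from the rest by Dixon's criterion, which compares the gap to the nearest value with the range of the group. Chance marks about 1 in 20 groups in this way. *Pecam1* was 3.73 in young unirradiated replicate 3, where the next highest value was 3.25 (ratio 0.661). *Tie1* was −0.07 in young irradiated replicate 4, where the next lowest value was 0.82 (ratio 0.749). The *Vwf* probe A_55_P2169659 was 1.89 in the same mouse, where the next lowest value was 3.52 (ratio 0.669). The cause of these values was not tested.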

How the results depend on the processing

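The counts of the 10 genes and of the other endothelial genes were recomputed with other scalings, filters, tests and sets of mice. Genes higher without overlap after irradiation numbered 2 to 4 in young mice (3 in the report) and 4 to 7 in old mice (6). Overlap is read from the values alone, so another test or a block could not change these counts. Leaving out a mouse could not lower them. The interaction called 0 of the 7 genes in all 39 alternatives. With normexp, 4 other endothelial genes were called higher in young (10 in the report) and 0 in old irradiated mice (7), and 0 of the 7 genes were called in unirradiated old against young mice (3). Of all 11773 genes tested with normexp, 786 were called higher in young and 4 in old irradiated mice, and 0 were called by age in unirradiated mice. With the authors' deposited values 5 other endothelial genes were called higher in young irradiated mice. Without the filter on dim probes 14 were. With only the probes that were well above background on every array compared, 4 passed in young and 4 in old mice, and fewer genes were tested. With the slide as a block 3 passed in young and 3 in old mice, and of the 7 genes 6 were called by age in unirradiated and 2, *Tie1* and *Vwf*, in irradiated mice (0 in the report). No slide held both ages, so these calls by age do not come from a comparison within a slide. That fit also called 9530 of all genes higher and 3141 lower in old unirradiated mice, and 1027 higher and 314 lower in old irradiated mice. A fit of all 24 arrays called 3 by age in irradiated mice. The causes of the other changes were not tested.

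Leaving out 1 mouse at a time gave 9 to 10 other endothelial genes in young and 7 to 8 in old mice. It gave 2 to 3 of the 7 genes by age in unirradiated mice, 0 in irradiated mice and 0 in the interaction. Genes without overlap numbered 3 to 4 in young and 6 in old mice. Leaving out a mouse cannot create overlap, so these counts could not fall and are no check. In the authors' table *Kdr*, there its dim probe, rose by 2.85 in young and 2.51 in old mice, and the mean of both *Kdr* probes rose by 1.34 and 1.42.

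Replicate numbers did not pair the mice, since the correlations between mice of the same number in different groups ran from −0.598 to 0.583. A replicate block was fitted as an alternative. It gave 10 and 7 other endothelial genes called in young and old mice. Genes called by age numbered 3 in unirradiated mice, 0 in irradiated mice and 0 in the interaction. The counts of genes without overlap, 3 in young and 6 in old mice, come from the values alone and cannot change with a block.

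After the data were seen, 2 alternatives were added. Old unirradiated replicates 1 and 6 were the most alike arrays (root mean square difference 0.185 over 13722 probes, next pair 0.297). Counted as 1 mouse, they left 2 of the 7 genes called in unirradiated mice. Without the 2 old irradiated arrays of lowest median signal, 9 other endothelial genes were called. There 6 genes were higher without overlap in old mice, a count that leaving out arrays could not lower.

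With 6 mice in a group the number of arrays limits the precision, and signal over background limits what can be seen of *Cdh5*, *Tek* and *Emcn*. Platelet, liver and endothelial RNA were not separated, the members were chosen on these samples, and scan day and age cannot be told apart.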
